A study of Xenopus tropicalis with 18 samples.

Results

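The nuclear genes of the mitochondrial respiratory chain and of ATP synthase form a set of 76 genes among the 28850 genes of the count tables. A gene was taken when its symbol began with nduf followed by a, b, c, s or v and a number (complex I), was sdha, sdhb, sdhc or sdhd (complex II), began with uqcr (complex III), began with cox followed by a number from 4 to 8 (complex IV), or began with atp5 (complex V, the ATP synthase). This gave 35 genes for complex I, 4 for complex II, 7 for complex III, 14 for complex IV and 16 for complex V, and all 76 symbols were found in the RefSeq annotation of the UCB_Xtro_10.0 assembly, from which the gene positions below are taken. The choice used symbols only and no measured value. Mitochondrially encoded subunits were not analysed here.

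Complexes I to IV of the inner mitochondrial membrane pass electrons from NADH and succinate to oxygen, and complexes I, III and IV pump protons while they do so. ATP synthase lets the protons flow back through a rotating ring of c subunits and uses that rotation to make ATP. Complex II is the only one of these enzymes that is also an enzyme of the citric acid cycle, and the only one with no subunit encoded in mitochondrial DNA. A frog egg is laid with a store of maternal mitochondria and maternal mRNA, and the embryo's own transcription starts at the mid-blastula transition.

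The experiment measured polyA RNA of whole wild-type *Xenopus tropicalis* embryos after knockdown of the maternal transcription factors Foxi2 or Sox3, which the study examined as regulators of the ectoderm germ layer. Foxi2 morphants were embryos injected with a Foxi2 morpholino (MO, an antisense oligonucleotide) in the animal hemisphere. Sox3 morphants received a Sox3 MO in the same way. The paper's methods give the 1-cell or the 2-cell stage for these injections. Each series had control embryos of its own, and embryos were collected at early gastrula (stage 10.5) and late blastula (stage 9). There were 3 Foxi2 morphant and 3 Foxi2 control libraries at stage 9, and 2 libraries in each of the other 6 groups, which makes 18 libraries with 12740571 to 27866261 counts each. The sample records list a morpholino treatment for every library, controls included, while the design text calls the controls wild-type, so that it is unclear whether control embryos were injected. Neither the number of embryos in a library nor what a replicate number stands for is stated, and p-values then measure only the spread between these libraries.

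Several libraries stood apart from others of their group in a gene of the embryo's own transcription. The mesoderm gene *tbxt* (brachyury), which is switched on before gastrulation, was at 411 and 175 CPM (normalised counts scaled to a common library size) in Foxi2 morphants and 481 and 194 CPM in Foxi2 controls at stage 10.5. At stage 9 it was at 0.178, 42.4 and 234 CPM in Foxi2 morphants and at 0.633, 36.6 and 259 CPM in Foxi2 controls, replicates 1 to 3, so that the stage 9 libraries with the number 3 lay above the stage 10.5 libraries with the number 2. In the Sox3 series the stages did not overlap, with 294 to 448 CPM at stage 10.5 and 1.48 to 11.7 CPM at stage 9. Morphant and control libraries with the same number deviated together from their group means in all 9 such pairs (correlation over 15318 genes between 0.708 and 0.914), and they are treated as pairs below. The 9 correlations are not independent. In groups of 2 libraries the deviations mirror each other, so both pairs of such groups have the same value. Summed markers were above 0 in all 18 libraries, for ectoderm (270.5 to 887 CPM), mesoderm (2.556 to 776 CPM), endoderm (8.349 to 2005 CPM) and germ plasm (146.2 to 496 CPM). Single markers were near 0 in some libraries of stage 9. In replicate 1 of the Foxi2 morphants there, *grhl1* held 383 of the 392.1 CPM of the ectoderm sum, with *dlx3* at 0 and *tfap2a* at 0.535 CPM. The endoderm marker *a2m* stayed between 0 and 0.298 CPM in all libraries. These sums therefore do not show RNA of every germ layer in each library. The transcripts of *foxi2* (116 to 399 CPM) and *sox3* (480 to 1730 CPM) were present throughout. Translation-blocking MOs leave the transcript in place, so their levels are no check of the knockdown. Each was higher in every morphant of its own series than in the control of the same number. At stage 10.5 *sox3* was at 1730 and 1260 CPM in Sox3 morphants, against 667 and 480 CPM in controls. There *foxi2* was at 282 and 399 CPM in Foxi2 morphants, against 116 and 270 CPM in controls. The cause of these differences was not tested.

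Of the 76 genes, 74 had counts enough to be tested in every comparison. The remaining pair, *cox6a2* and *cox7a1*, which encode muscle isoforms of complex IV subunits in mammals, had at most 3 counts in each of the 18 libraries. The mean level of the 74 genes over the 9 control libraries ran from 1.91 to 561 CPM, with a median of 28.004 CPM. Levels are not compared between genes, because no transcript lengths were used.

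Summed over the set, the Sox3 libraries of stage 10.5 held 4931 and 5436 CPM in morphants and 6942 and 5749 CPM in controls. At stage 9 the sums were 3718 and 3994 CPM in Sox3 morphants and 4161 and 3958 CPM in Sox3 controls. In the Foxi2 series the sums at stage 10.5 were 4303 and 3206 CPM in morphants and 4096 and 3107 CPM in controls. The Foxi2 libraries of stage 9, replicates 1 to 3, had 2918, 3407 and 4164 CPM in morphants and 2767, 3204 and 3834 CPM in controls. The stages did not overlap in the Sox3 series and overlapped in the Foxi2 series, where replicate 3 of stage 9 again lay above replicate 2 of stage 10.5. Replicate 1 of the Sox3 controls at stage 10.5 stood highest of all 18 libraries, and it was also the highest in summed cytosolic ribosomal protein genes (12257 CPM, where the lowest library had 3045.5 CPM). For the Sox3 knockdown median at early gastrula, values with and without this library are given below. Most other results that use it are given with it only. Complex II alone kept within a narrow range, 145.16 to 222.6 CPM over the 18 libraries, while complex I ranged from 829 to 1736 CPM, complex III from 506 to 1607 CPM, complex IV from 419 to 1396 CPM and complex V from 833 to 2044 CPM.

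**Figure D1:**
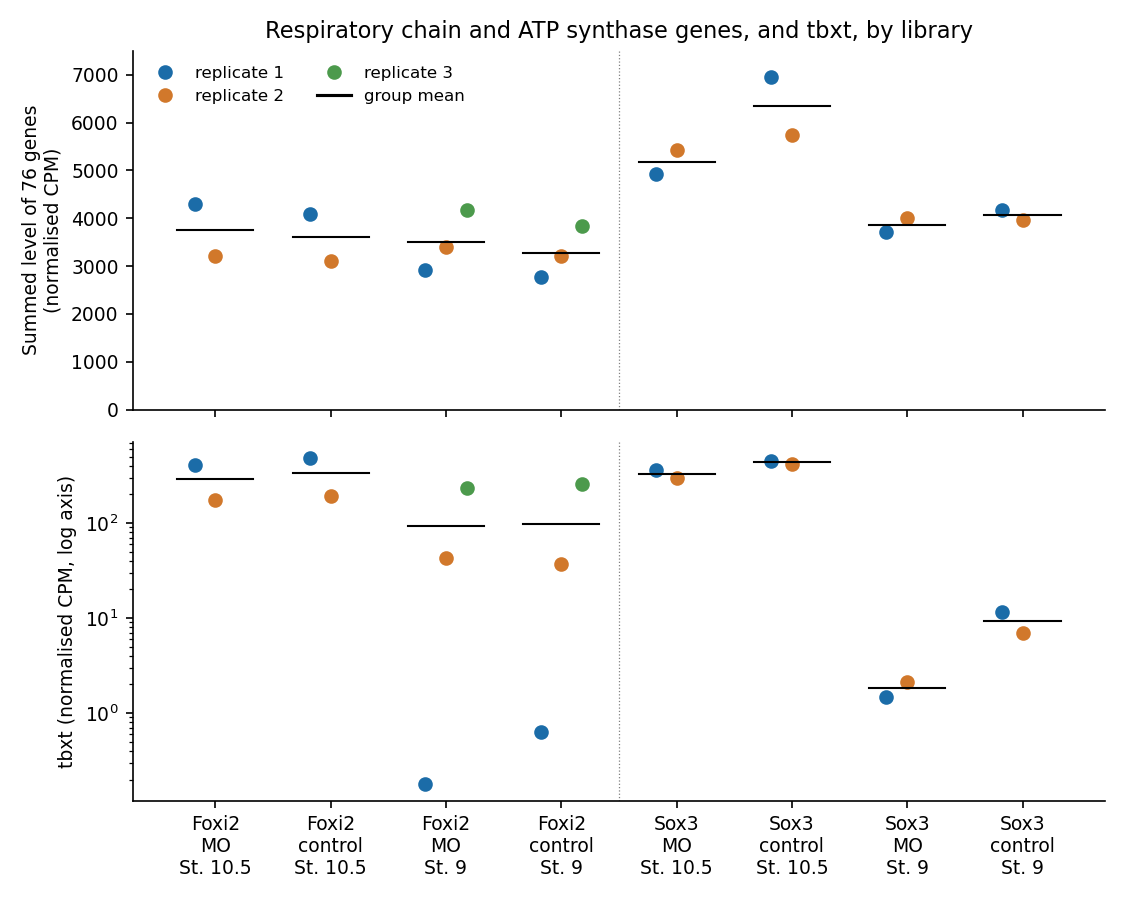
Summed normalised CPM of the respiratory chain and ATP synthase genes in each of the 18 libraries, by group, with each point a library and each horizontal line a group mean. The Sox3 control library with 6942 CPM at stage 10.5 stands above all others, and the Foxi2 libraries of stage 9 and stage 10.5 overlap.

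Subunit transcripts tended to be more abundant at early gastrula than at late blastula, with complex II as the exception among the complexes. In the controls of both series fitted together, 69 of the 74 genes had a higher fitted level at stage 10.5 than at stage 9 and 5 a lower one, with a median log2 difference of 0.39, against 0.06 over all genes tested. None of the 74 genes passed the test (edgeR quasi-likelihood test, Benjamini-Hochberg adjusted p under 0.05), where 0% of all genes tested passed it. At an unadjusted p under 0.05 there were 18 genes higher and 1 lower, beside 2152 higher and 2522 lower of all 14785 genes tested. DESeq2 called 10 higher and 1 lower, beside 10.1% of all genes called higher and 14.3% called lower by DESeq2. In whole embryos a change in the number of cells of a type and a change in the RNA per cell cannot be told apart.

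The edgeR count changed when the 1 stage 9 control library with the high *tbxt* level was left out, while DESeq2 called genes with it kept. This library was singled out because its *tbxt* level was near those of stage 10.5. A larger stage difference without it partly follows from that choice and is no separate result. Without replicate 3 of the Foxi2 controls at stage 9 (259 CPM of *tbxt*), edgeR called 22 of the 74 genes higher at stage 10.5 and 1 lower, beside 13.8% of all genes called higher and 15.2% called lower, and the median difference was 0.50. The gene called lower was *sdhd* (log2 difference -1.26, adjusted p = 0.00452), a membrane anchor of complex II. Those called higher included *cox7b*, a small subunit of complex IV (1.39, adjusted p = 0.0083), and *uqcr10*, a small subunit of complex III (1.52, adjusted p = 0.00854). They also held *atp5f1b*, which encodes the catalytic beta subunit of ATP synthase (0.45, adjusted p = 0.0086), and *uqcrfs1*, which encodes the Rieske iron-sulfur protein of complex III (0.49, adjusted p = 0.0177). Complex I was represented by *ndufv3*, an accessory subunit (1.24, adjusted p = 0.0201), and *ndufs8*, a core subunit that carries iron-sulfur clusters (0.44, adjusted p = 0.0313).

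The controls of each series alone gave different counts. In the Sox3 controls 71 genes were higher at stage 10.5 and 3 lower, with a median log2 difference of 0.72 against 0.08 over all genes. Without regard to replicate numbers, as in the main stage comparisons here, edgeR called 8 of the 74 genes higher and 1 lower. That stands beside 8.52% of all genes called higher and 9.17% called lower. With the replicate number as a block it called 57 higher and 1 lower, beside 3531 higher and 3176 lower of all 14067 genes. Libraries of the same number correlated across stages in these controls at 0.69, a value that both numbers share by construction. The count without the block changed when single libraries were left out. Leaving a library out leaves 1 in its group. Those counts are therefore listed only among the processing alternatives and are not read as results. The share of all genes in those fits was not recorded. Without single libraries the median stayed between 0.55 and 0.93. In the Foxi2 controls 48 genes were higher and 26 lower, with a median of 0.16 against 0.01 over all genes (-0.18 without replicate 1 of stage 10.5), and edgeR called none, where 0% of all genes were called. At an unadjusted p under 0.05 this comparison had 0 genes higher and 1 lower, beside 141 and 439 of all 13247 genes. DESeq2 called none. The fitted stage difference was less positive or more negative in the Foxi2 than in the Sox3 controls for all 74 genes (median of the difference between series -0.62, against -0.08 over all genes), yet the edgeR test of that difference called none of them, where 0% of all genes were called. At an unadjusted p under 0.05 that test had 2 genes, beside 198 of all 14785 genes, and DESeq2 called none.

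**Figure D2:**
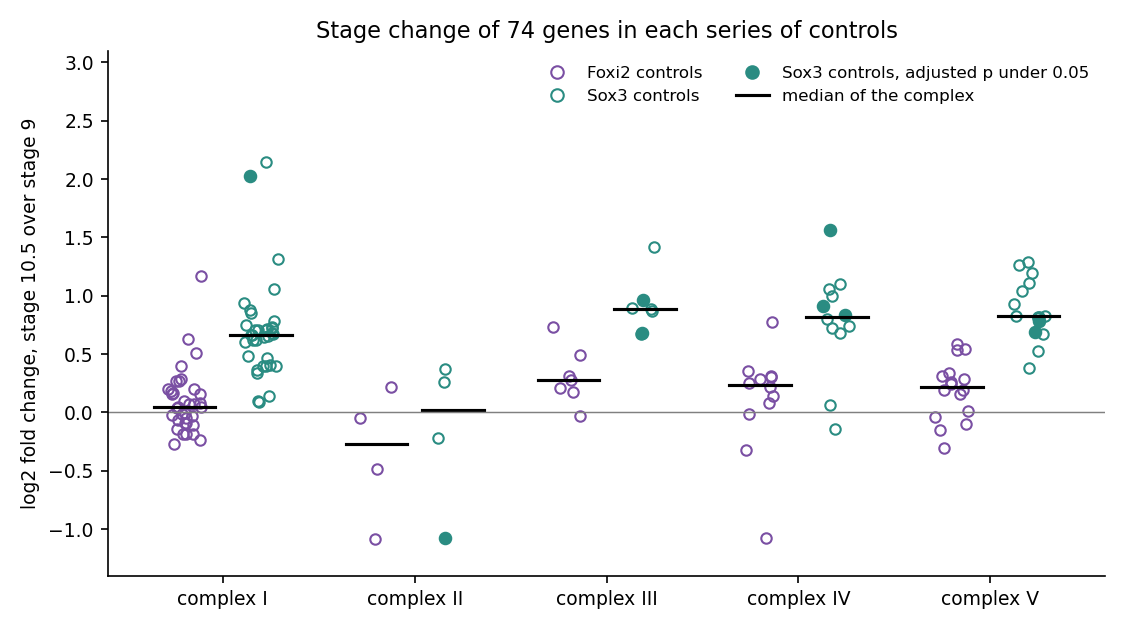
Log2 difference between stage 10.5 and stage 9 in the controls of each series for the 74 genes tested, by complex. Each point is a gene, filled where the adjusted p was under 0.05, and black lines are the median of each complex. The Foxi2 medians for complexes I to V are 0.05, -0.27, 0.275, 0.24 and 0.22, in that order. The Sox3 medians are 0.67, 0.02, 0.89, 0.82 and 0.82.

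For complex I, the NADH dehydrogenase through which most electrons enter the chain, the median stage difference in controls of both series was 0.30, with genes from -0.04 to 1.61. The member named for its CPM, which is not corrected for transcript length, was *ndufs8* (chr7:58320539-58353295). In Sox3 controls *ndufs8* was at 273.9 and 220.7 CPM at stage 10.5, against 155.4 and 166.4 CPM at stage 9, and in Foxi2 controls at 156.4 and 140.7 CPM, against 117.3, 129.7 and 146.6 CPM. The stages did not overlap in the Sox3 controls and overlapped in the Foxi2 controls through 1 library.

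The largest fitted stage differences of the whole set were those of accessory subunits of complex I with few counts. *ndufc2* (chr2:174095054-174098255), a membrane-arm subunit, was at 2.4 and 1.9 CPM at stage 10.5 in Sox3 controls, against 0.7 and 0.3 CPM at stage 9, and at 5.7 and 1.5 CPM in Foxi2 controls, against 0.6, 1.3 and 2.9 CPM (log2 difference 1.61, SE 0.62, edgeR adjusted p = 0.119). *ndufb4* (chr2:2898122-2902374), also of the membrane arm, was at 10.7 and 7.3 CPM, against 2.6 and 1.8 CPM, in Sox3 controls, where edgeR called it higher at stage 10.5 (2.03, adjusted p = 0.0343). In Foxi2 controls it was at 7.8 and 5.3 CPM, against 2.6, 5.5 and 6.9 CPM, and over both series the difference was 1.16 (SE 0.46, adjusted p = 0.126). Among the controls both genes were at their lowest in the stage 9 libraries with little *tbxt*, and the Foxi2 groups overlapped for both. The annotated span of *ndufb4* overlaps that of *hgd* by 13 bases, and that of *ndufv3* (chr2:294798-301719) overlaps *wdr4* by 42 bases. Whether counting used strand is not stated, so that reads in those bases may belong to either gene. *ndufv3*, of the NADH-binding module, was at 4.9 and 4.6 CPM at stage 10.5 in Sox3 controls, against 2.2 and 1.7 CPM at stage 9, and at 5.0 and 3.2 CPM in Foxi2 controls, against 1.7, 1.9 and 4.3 CPM (0.95, SE 0.39, adjusted p = 0.135). At the other end of complex I stood *ndufs4* (chr1:192339861-192403998), an accessory subunit, with 11.6 and 10.2 CPM, against 10.7 and 9.8 CPM, in Sox3 controls and 8.2 and 6.9 CPM, against 11.04, 7.6 and 6.5 CPM, in Foxi2 controls. Its stage difference of -0.04 (SE 0.23, adjusted p = 0.936) was well inside the spread of the libraries.

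Complex II, succinate dehydrogenase, had a median stage difference of -0.11, and its 4 genes went different ways. *sdha* (chr6:65771231-65819513), which encodes the flavoprotein that oxidises succinate, was at 89.3 and 150.5 CPM at stage 10.5 in Sox3 controls, against 90.5 and 110.1 CPM at stage 9, and at 102.5 and 93.7 CPM in Foxi2 controls, against 85.1, 74.5 and 92.9 CPM (log2 difference 0.24 over both series). *sdhb* (chr7:131920380-131928546), the iron-sulfur subunit, was at 19.2 and 25.2 CPM, against 18.8 and 15.6 CPM, in Sox3 controls and 27.7 and 16.0 CPM, against 13.7, 24.8 and 29.4 CPM, in Foxi2 controls (0.15). In replicate 1 of the Sox3 controls at stage 10.5, the library in which the summed set was highest, *sdha* was at its lowest of the Sox3 libraries.

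The membrane anchors of complex II had negative stage differences. *sdhd* (chr7:84875016-84880791) was at 30.3 and 29.9 CPM at stage 10.5 in Sox3 controls, against 54.5 and 72.3 CPM at stage 9, and edgeR called it lower (log2 difference -1.08, adjusted p = 0.0319). In Foxi2 controls it was at 13.01 and 20.9 CPM at stage 10.5, against 53.6, 38.4 and 15.7 CPM at stage 9, where the low value belongs to the library with 259 CPM of *tbxt*. The groups therefore overlapped in the Foxi2 series and not in the Sox3 series, and over both series the difference was -1.08 (SE 0.33, adjusted p = 0.0751). *sdhc* (chr8:141333280-141345841) was at 20.8 and 16.97 CPM, against 25.5 and 18.6 CPM, in Sox3 controls and at 17.3 and 14.6 CPM, against 26.6, 18.9 and 21.4 CPM, in Foxi2 controls (-0.37, SE 0.19, adjusted p = 0.223). Its groups overlapped in the Sox3 series only.

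**Figure D3:**
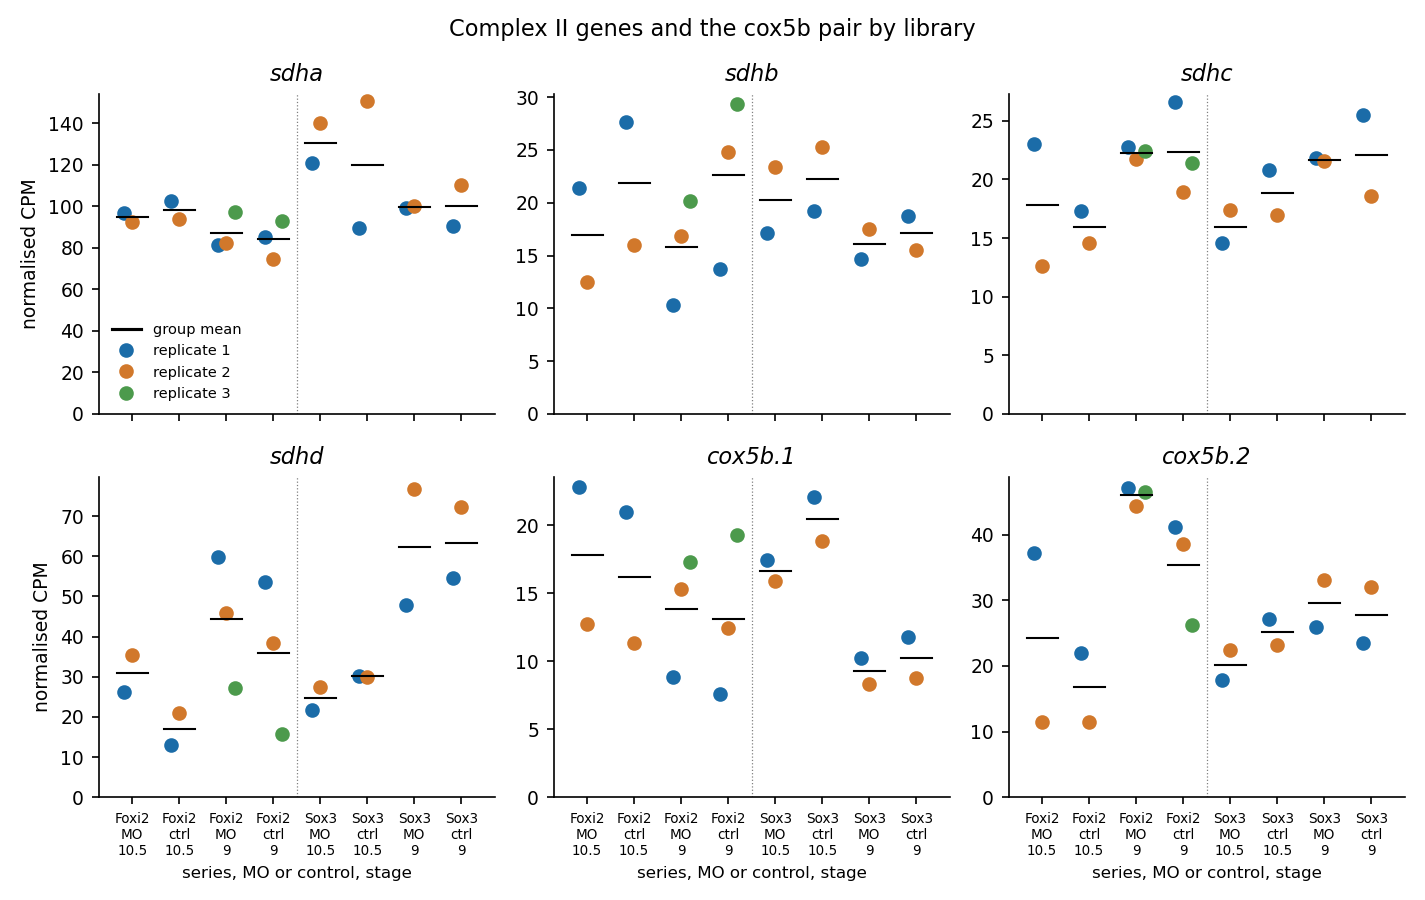
Normalised CPM of the complex II genes and of *cox5b.1* and *cox5b.2* in each library, by series, morphant or control, and stage, with points coloured by replicate number and horizontal lines for group means. In the Sox3 series *sdhd* lies at 21.8 to 30.3 CPM at stage 10.5 and at 47.8 to 76.7 CPM at stage 9, while *cox5b.1* is higher at stage 10.5 in that series.

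Complex III, which passes electrons from ubiquinol to cytochrome c, had a median stage difference of 0.50, and all 7 of its genes were higher at stage 10.5 in the fit of both series, by 0.39 to 1.05. *uqcrfs1* (chr4:72017365-72021240) was at 881.6 and 840.6 CPM at stage 10.5 in Sox3 controls, against 524.2 and 548.6 CPM at stage 9, and was called (log2 difference 0.68, edgeR adjusted p = 0.027). In Foxi2 controls it was at 470.4 and 375.4 CPM, against 353.4, 336.1 and 406.1 CPM. *uqcr10* (chr1:144650728-144652755) was at 16.4 and 9.3 CPM, against 5.2 and 4.4 CPM, in Sox3 controls and 6.4 and 4.8 CPM, against 1.4, 2.2 and 6.6 CPM, in Foxi2 controls (1.05, SE 0.47, adjusted p = 0.161). For both genes the stages were apart in the Sox3 series and overlapped in the Foxi2 series. *uqcrq*, the small subunit next to cytochrome b, was called higher in Sox3 controls (0.96, adjusted p = 0.0359), at 46.1 and 39.5 CPM, against 22.01 and 21.9 CPM.

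Complex IV, cytochrome c oxidase, had a median of 0.51, and included genes with positive and with negative differences. *cox6b1* (chr7:124522840-124530278), a subunit on the intermembrane side at the contact of the dimer, was at 414.3 and 289.2 CPM at stage 10.5 in Sox3 controls, against 198.8 and 174.2 CPM at stage 9 (log2 difference 0.92, edgeR adjusted p = 0.0473), and at 151.0 and 98.4 CPM in Foxi2 controls, against 89.7, 86.5 and 138.2 CPM. *cox7b* (chr8:45738993-45742817) was at 54.5 and 29.4 CPM, against 15.3 and 13.025 CPM, in Sox3 controls (1.57, adjusted p = 0.0421) and at 17.98 and 14.2 CPM, against 5.1, 8.8 and 14.4 CPM, in Foxi2 controls. Over both series *cox7b* differed by 1.14 (SE 0.35, adjusted p = 0.0741). In both genes replicate 1 of the Sox3 controls at stage 10.5 was far above its partner. *cox5a*, a matrix-side subunit, was also called in Sox3 controls (0.83, adjusted p = 0.0402), at 110.5 and 92.6 CPM, against 61.2 and 52.8 CPM.

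Where complex IV has more than 1 gene for a subunit, the copies did not all follow the same course. The zinc-binding subunit 5b has a pair of genes, of which *cox5b.1* (chr3:125464433-125467501; chosen after its values were seen) was at 22.1 and 18.9 CPM at stage 10.5 in Sox3 controls, against 11.8 and 8.8 CPM at stage 9, and at 21.0 and 11.4 CPM in Foxi2 controls, against 7.6, 12.4 and 19.3 CPM (log2 difference 0.62 over both series). *cox5b.2* (chr7:38384196-38395277) was at 27.1 and 23.2 CPM, against 23.6 and 32.1 CPM, in Sox3 controls and at 22.02 and 11.5 CPM, against 41.1, 38.6 and 26.3 CPM, in Foxi2 controls (-0.64, SE 0.29, adjusted p = 0.169). The stages were apart for *cox5b.1* in the Sox3 controls alone and for *cox5b.2* in the Foxi2 controls alone, and reads shared between such similar genes could have been divided between them in the counting. *cox4i1* (chr4:64787735-64794315) and *cox4i2* (chr10:354540-361878), alternative forms of subunit 4, differed by 0.66 (adjusted p = 0.17) and 0.39 (adjusted p = 0.273). *cox7a2* (chr5:90843305-90849190) differed by 0.48 (adjusted p = 0.266), while *cox7a2l* (chr5:16998008-17005055), which in mammals takes part in joining complexes III and IV, differed by -0.15 (SE 0.16, adjusted p = 0.576). *cox6a1* (chr1:151729957-151734512), the form of subunit 6a that was detected, differed by 0.45 (adjusted p = 0.173). *ndufa4* (chr7:124423267-124426502), named for complex I but a subunit of complex IV in mammals, differed by 0.46 (SE 0.14, adjusted p = 0.0762).

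Complex V had a median of 0.47, and all 16 of its genes had positive stage differences, from 0.01 to 0.88. *atp5f1b* (chr2:138750193-138754836) was at 744.8 and 722.3 CPM at stage 10.5 in Sox3 controls, against 528.7 and 488.6 CPM at stage 9, and at 586.5 and 546.4 CPM in Foxi2 controls, against 412.4, 465.1 and 557.8 CPM. The stages were apart in the Sox3 controls and overlapped in the Foxi2 controls through replicate 3 of stage 9. The gamma subunit gene *atp5f1c*, which encodes the rotating shaft, was called higher in Sox3 controls (0.78, edgeR adjusted p = 0.0491), at 476.2 and 350.3 CPM, against 242.9 and 237.6 CPM. The same c subunit of the ring is encoded by several genes in mammals, and of its copies here *atp5mc1* (chr2:146638326-146650679) differed by 0.47 (SE 0.21, adjusted p = 0.158) over both series, while *atp5mc3* (chr9:64427240-64431506) differed by 0.01 (SE 0.20, adjusted p = 0.973). In Sox3 controls *atp5mc1* was called (0.69, adjusted p = 0.049), at 67.3 and 62.2 CPM, against 41.0 and 39.1 CPM. *atp5if1* (chr2:82796875-82801919), which encodes the inhibitor of ATP hydrolysis by the enzyme, differed by 0.39 (adjusted p = 0.269).

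Other gene lists of the mitochondrion and of large complexes put these medians in context. In the controls of both series the median stage difference was 0.72 for 86 cytosolic ribosomal protein genes, 0.44 for 36 proteasome subunit genes and 0.36 for 12 electron or metabolite carriers and subunits outside the symbol rule. It was 0.24 for 77 mitochondrial ribosomal protein genes, 0.24 for 17 citric acid cycle genes, 0.19 for 17 glycolysis genes, 0.15 for 43 assembly factors of the complexes and -0.04 for 23 genes of mitochondrial transcription and biogenesis. The members' median of 0.39 was thus between those of the cytosolic ribosome and of the mitochondrial ribosome. In the Sox3 controls edgeR called 8.52% of all genes higher and 9.17% lower, and of the 74 members 8 higher and 1 lower. It called 69 of 86 cytosolic ribosomal protein genes higher and 1 lower, and 13 of 36 proteasome genes higher and 1 lower. Of the 12 carriers and subunits outside the symbol rule, 4 were called higher and 0 lower. Calls were 3 higher and 1 lower of 77 mitochondrial ribosomal protein genes, and 1 higher and 2 lower of 43 assembly factors. They were 2 higher and 1 lower of 17 citric acid cycle genes, and 2 higher and 0 lower of 17 glycolysis genes. Among 23 genes of mitochondrial transcription and biogenesis, 1 was called higher and 2 lower.

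Foxi2 knockdown left most of the set near its control level, and a few genes were called once the pairs were taken into account. At early gastrula 39 of the 74 genes were higher in Foxi2 morphants than in Foxi2 controls and 35 lower, with a median log2 fold change of 0.03 against -0.01 over all genes. At late blastula 47 were higher and 27 lower, with a median of 0.07 against 0.00. Without pairing these medians turned negative when 1 library was left out, at -0.34 without morphant 1 and -0.22 without control 2 at early gastrula, and at -0.11 without morphant 3 and -0.05 without control 1 at late blastula. Without regard to pairs, edgeR called none of the 74 genes at either stage, where 0% of all genes tested were called. At an unadjusted p under 0.05 there were 0 higher and 1 lower at early gastrula, beside 140 and 136 of all 13215 genes. At late blastula there was 1 of each, beside 62 higher and 85 lower of all 12802 genes. DESeq2 called none at early gastrula and 1 lower at late blastula, *ndufa13* (adjusted p = 0.0322), beside 0.147% of all genes called lower.

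Taking the pairs into account lowered the spread and brought calls. With the replicate number as a block, edgeR called 3 genes higher and 1 lower at early gastrula, beside 2.6% of all genes called higher and 2.68% called lower, and 4 higher and 2 lower at late blastula, beside 0.844% and 1.16%. At early gastrula 25 genes were higher and 28 lower in both pairs, which is 33.8% and 37.8% of the set, beside 30.8% and 33.6% of all genes. At late blastula 28 genes were higher and 11 lower in all 3 pairs, which is 37.8% and 14.9% of the set, beside 19.3% and 17.8% of all genes. The medians of the pairs lay between -0.01 and 0.10.

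**Figure D4:**
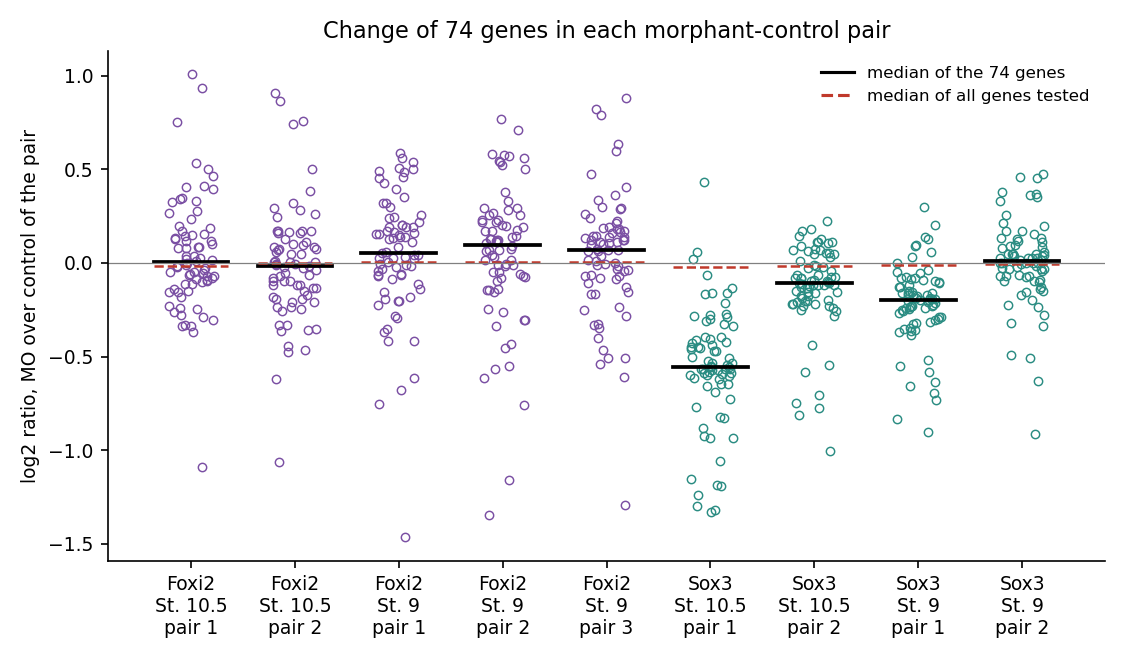
Log2 ratio of morphant to control for each of the 74 genes in each pair of libraries of the same number, with black lines for the median of the 74 genes and broken lines for the median of all genes tested. The Foxi2 pairs are centred near 0, while pair 1 of the Sox3 series at stage 10.5 has a median of -0.55 and the other Sox3 pairs have medians of -0.11, -0.20 and 0.01.

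*ndufa13* (chr7:53113113-53119745), an accessory subunit of complex I also known as GRIM-19, was called lower at both stages. It was at 14.6 and 10.7 CPM in Foxi2 morphants at early gastrula, against 31.3 and 22.5 CPM in their controls, and at 11.9, 11.4 and 13.3 CPM in morphants at late blastula, against 20.1, 25.6 and 32.6 CPM in controls. All 5 morphant libraries were below all 5 control libraries. With the block the log2 fold change was -1.08 (SE 0.12, edgeR adjusted p = 0.00576) at early gastrula and -1.08 (SE 0.13, adjusted p = 0.0113) at late blastula. No annotated gene lies within 1 kb of it. In the Sox3 series *ndufa13* was at 43.2 and 51.1 CPM in morphants, against 63.5 and 49.3 CPM in controls, at early gastrula and at 33.7 and 31.5 CPM, against 35.9 and 34.4 CPM, at late blastula.

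*atp5mc3*, a gene of the c ring, was called higher at both stages, each time with the smallest adjusted p of the genes called higher. It was at 274.7 and 164.0 CPM in Foxi2 morphants at early gastrula, against 143.7 and 89.9 CPM in controls, and at 164.7, 246.1 and 275.1 CPM in morphants at late blastula, against 116.0, 166.6 and 149.4 CPM in controls. Each morphant library was above the control of its number, although the groups overlapped at late blastula. The blocked log2 fold change was 0.90 (SE 0.07, edgeR adjusted p = 0.00251) at early gastrula and 0.65 (SE 0.08, adjusted p = 0.0132) at late blastula. The other c-ring gene, *atp5mc1*, was at 33.8 and 22.4 CPM, against 37.3 and 22.4 CPM, at early gastrula and at 20.8, 20.8 and 33.5 CPM, against 21.7, 20.5 and 31.3 CPM, at late blastula, and was not called.

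*ndufs7* (chr1:99544336-99551973), a core iron-sulfur subunit of complex I, was at 33.8 and 21.9 CPM in Foxi2 morphants at early gastrula, against 23.3 and 13.04 CPM in controls, and at 20.8, 22.6 and 33.8 CPM at late blastula, against 15.5, 15.1 and 24.3 CPM. With the block it rose by 0.63 (SE 0.12, adjusted p = 0.0301) at early gastrula and by 0.49 (SE 0.09, adjusted p = 0.0468) at late blastula on the log2 scale. The groups overlapped at both stages, and the difference showed within the pairs.

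The remaining calls were made at 1 stage each. *sdhd* was at 26.3 and 35.4 CPM in Foxi2 morphants at early gastrula, against 13.01 and 20.9 CPM in controls (blocked log2 fold change 0.89, SE 0.12, edgeR adjusted p = 0.0115), and the groups did not overlap. At late blastula it was at 59.9, 45.9 and 27.3 CPM, against 53.6, 38.4 and 15.7 CPM, and was not called, although each morphant was above its control. In controls of the Sox3 series the same gene was called lower at stage 10.5 than at stage 9. It lies 391 bases from *timm8b* and 339 bases from LOC100496716. *cox6a1* was called at late blastula, at 36.1, 56.8 and 69.6 CPM in morphants, against 26.2, 38.2 and 45.9 CPM in controls (0.55, SE 0.07, adjusted p = 0.018). The groups overlapped, and the difference was within the pairs.

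*atp5me* (chr1:99106838-99112608), the e subunit of the membrane part of ATP synthase, was called at late blastula at 9.4, 14.0 and 18.3 CPM, against 6.3, 8.5 and 11.8 CPM (0.65, SE 0.11, edgeR adjusted p = 0.0419). At early gastrula it was at 16.7 and 11.999 CPM, against 12.6 and 13.04 CPM, and its pairs went opposite ways. The gene lies 47 bases from *cwf19l1*. At late blastula the groups overlapped. *sdhb* was called lower at late blastula, at 10.3, 16.8 and 20.2 CPM in morphants, against 13.7, 24.8 and 29.4 CPM in controls (-0.51, SE 0.09, adjusted p = 0.048). At early gastrula it was at 21.4 and 12.5 CPM, against 27.7 and 16.0 CPM, again lower in both pairs but not called. Within complex II the iron-sulfur subunit and a membrane anchor were thus called in opposite directions, at different stages.

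The number of calls depended on single pairs. For fits without a pair, and for directions over all pairs of a series, the share of all genes was not recorded, here and below. Those counts therefore have no background to be read against. At late blastula edgeR with the block called 3 genes without pair 1 (*ndufa13*, *atp5mc3* and *cox6a1*), none without pair 2 and 1 without pair 3 (*atp5mc3*). Fitting both stages of the Foxi2 series with 1 common knockdown effect and 5 pairs, an alternative chosen after seeing the data, gave 11 genes called higher and 5 lower, beside 6.23% and 6.18% of all genes, and 12 of these 16 had the same direction in all 5 pairs. Whichever pair was left out, 6 genes were called: *ndufa13* (log2 fold change -1.08, SE 0.09, adjusted p = 0.000162), *atp5mc3* (0.75, adjusted p = 0.00036), *ndufs7* (0.55, adjusted p = 0.0015), *sdhb* (-0.45, adjusted p = 0.00375), *cox6a1* (0.46, adjusted p = 0.00393) and *ndufv2* (0.40, adjusted p = 0.00542). *ndufv2*, a core iron-sulfur subunit of complex I named here after its values were seen, was at 37.8 and 19.2 CPM in morphants at early gastrula, against 29.8 and 15.8 CPM in controls, and at 19.9, 32.6 and 36.2 CPM at late blastula, against 14.2, 22.3 and 28.6 CPM.

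**Figure D5:**
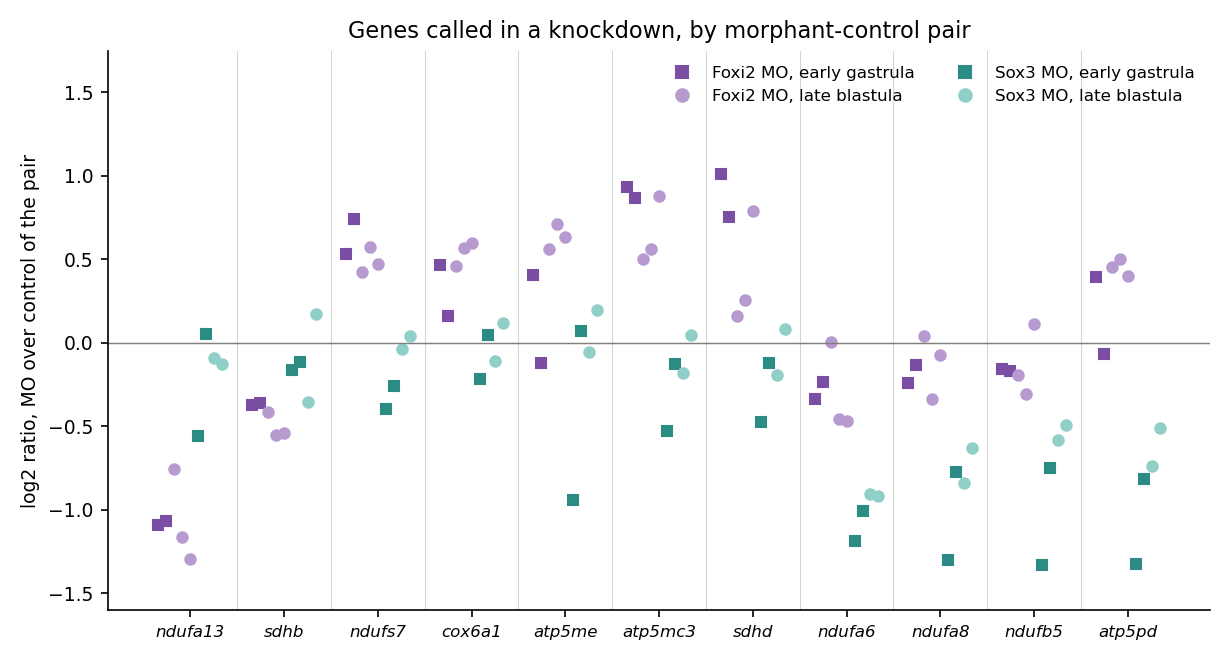
Log2 ratio of morphant to control in each pair of libraries for the genes called in a knockdown, with squares for early gastrula, circles for late blastula, and a colour for each knockdown series. All 5 Foxi2 pairs of *ndufa13* lie below 0 and all 5 of *atp5mc3* above it, and all 4 Sox3 pairs of *ndufa6*, *ndufa8*, *ndufb5* and *atp5pd* lie below 0.

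Sox3 knockdown was followed by lower fitted levels of most genes of the set at early gastrula, to an extent that differed between its pairs. At early gastrula 4 of the 74 genes were higher in Sox3 morphants than in Sox3 controls and 70 lower, with a median log2 fold change of -0.33 against -0.02 over all genes. Of these genes 52 were lower in both pairs and 1 higher in both, which is 70.3% and 1.35% of the set, beside 35% and 29.4% of all genes. The median was -0.55 in pair 1, whose control is the library with the highest summed set and the highest cytosolic ribosomal protein sum, and -0.11 in pair 2. In the edgeR fit it was -0.16 without that control and -0.47 without the other control, so that its size turned on 1 library. At late blastula 12 genes were higher and 62 lower, with a median of -0.09 against -0.01, and pair medians of -0.20 and 0.01. There 35 genes were lower and 8 higher in both pairs, which is 47.3% and 10.8% of the set, beside 29.5% and 25.8% of all genes.

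The early gastrula medians were negative in every complex, at -0.33 for complex I, -0.19 for complex II, -0.28 for complex III, -0.34 for complex IV and -0.36 for complex V. Differences between these medians were not tested. Medians of other lists were at -0.39 for cytosolic ribosomal protein genes, -0.29 for mitochondrial ribosomal protein genes, -0.25 for proteasome subunits and -0.25 for carriers and subunits outside the symbol rule. Assembly factors had a median of -0.18, citric acid cycle genes of -0.17, glycolysis genes of -0.10, and genes of mitochondrial transcription and biogenesis of 0.01.

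Single genes were called only with pairing or with DESeq2. Without the block edgeR called none of the 74 genes at either stage, where 0% of all genes were called. At an unadjusted p under 0.05 there were 0 higher and 4 lower at early gastrula, beside 384 and 408 of all 14427 genes. At late blastula there were 0 higher and 3 lower, beside 117 and 273 of all 13909 genes. DESeq2 called 3 lower at early gastrula, *ndufa6* (adjusted p = 0.00164), *atp5pd* (adjusted p = 0.0284) and *ndufb5* (adjusted p = 0.0486), beside 1% of all genes, and *ndufa6* alone at late blastula (adjusted p = 0.0131), beside 0.598% of all genes. With the block edgeR called 4 genes lower and none higher at early gastrula, beside 2.09% and 2.21% of all genes, and 3 lower and none higher at late blastula, beside 1.53% and 0.453%. At an unadjusted p under 0.05 the blocked fit had 0 genes higher at early gastrula, beside 1259 of all 14427 genes. At late blastula it had 3 higher, beside 549 of all 13909 genes. DESeq2 called none higher at either stage.

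*ndufa6* (chr4:115604415-115609510), an accessory subunit of complex I that binds the mitochondrial acyl carrier protein, was at 18.7 and 18.3 CPM in Sox3 morphants at early gastrula, against 42.6 and 36.9 CPM in controls, and at 13.8 and 12.8 CPM at late blastula, against 25.9 and 24.2 CPM. Morphants and controls were apart at both stages by more than the spread of the libraries. The blocked log2 fold change was -1.10 (SE 0.18, edgeR adjusted p = 0.00433) at early gastrula and -0.92 (SE 0.11, adjusted p = 0.00625) at late blastula. In the Foxi2 series it was at 22.1 and 17.01 CPM in morphants, against 27.96 and 20.1 CPM in controls, at early gastrula and at 19.975, 15.0 and 15.9 CPM, against 19.9, 20.6 and 22.045 CPM, at late blastula.

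*ndufa8* (chr8:36596013-36600907), an accessory subunit of complex I on the side of the intermembrane space, was at 17.7 and 14.6 CPM in Sox3 morphants at early gastrula, against 43.8 and 24.97 CPM in controls (-1.05, SE 0.20, edgeR adjusted p = 0.0102). At late blastula it was at 14.3 and 10.0 CPM, against 25.5 and 15.5 CPM (-0.74, SE 0.12, adjusted p = 0.0219). *ndufb5* (chr5:108777501-108783543), of the membrane arm of complex I, was at 25.9 and 24.5 CPM, against 65.4 and 41.3 CPM, at early gastrula (-1.05, SE 0.19, adjusted p = 0.00892) and at 22.5 and 22.6 CPM, against 33.8 and 31.8 CPM, at late blastula (-0.54, SE 0.10, adjusted p = 0.0441). Morphants and controls did not overlap for either gene at either stage. The gap was smaller than the spread of the controls for *ndufa8* at both stages and for *ndufb5* at early gastrula. *ndufa8* lies 118 bases from *morn5*, and *ndufb5* lies 404 bases from *mrpl47*.

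*atp5pd* (chr10:44321142-44326978), the d subunit of the stalk that holds the stator of ATP synthase, was at 15.0 and 15.3 CPM in Sox3 morphants at early gastrula, against 37.7 and 27.0 CPM in controls (-1.08, SE 0.20, edgeR adjusted p = 0.00856). At late blastula it was at 12.1 and 11.6 CPM, against 20.1 and 16.5 CPM (-0.63, adjusted p = 0.0505), just outside the threshold. The groups were apart at both stages. *atp5pd* lies 357 bases from *kctd2*. For *ndufa8*, *ndufb5* and *atp5pd* the control library with the highest summed set gave the larger of the pair differences at early gastrula, at -1.30, -1.33 and -1.32, where pair 2 gave -0.77, -0.75 and -0.81. For *ndufa6* the pairs gave -1.19 and -1.004. All of these pair values were further below 0 than the medians of the set in the same pairs. The genes were named because they were called lower in these same libraries. That position therefore follows from the choice and is no separate result.

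Both stages of the Sox3 series were also fitted with 1 common knockdown effect and 4 pairs, again chosen after seeing the data. That fit gave the same 4 genes, all lower in 4 of 4 pairs, and none higher. This stands beside 1.52% of all genes called lower and 0.839% called higher. The fit took the 4 pairs as independent. Sox3 control libraries of the same number correlated at 0.69 across stages, so pairs that share a number may not be independent. The adjusted p and the fits without a pair may then overstate the replication. *ndufa6* changed by -1.01 (SE 0.09, edgeR adjusted p = 0.00291) and was called whichever pair was left out, with an adjusted p of at most 0.0227. *ndufa8* (-0.89, adjusted p = 0.0144), *atp5pd* (-0.85, adjusted p = 0.0264) and *ndufb5* (-0.79, adjusted p = 0.0376) each lost the call without some pair, with adjusted p up to 0.0762, 0.110 and 0.144.

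Whether the knockdowns differed from each other was tested as an interaction of series and knockdown. Without the block edgeR called none of the 74 genes at either stage, where 0% of all genes were called, and DESeq2 called none. At an unadjusted p under 0.05 there were 3 genes at early gastrula, beside 388 of all 14933 genes, and 3 at late blastula, beside 135 of 14316. With the block 2 genes had a higher fold change in the Foxi2 than in the Sox3 series and none a lower one at early gastrula, beside 0.824% and 0.449% of all genes. At late blastula 2 had a higher and 1 a lower fold change in the Foxi2 series, beside 1.4% and 0.594% of all genes. These genes were *atp5mc3* and *sdhd* at early gastrula, and *atp5mc3*, *atp5pd* and *ndufa13* at late blastula. *ndufa6*, called in the Sox3 series at both stages, was not among them, so that a difference between the knockdowns in *ndufa6* was not shown. In the fit of both stages it was also called lower in the Foxi2 series, by a smaller amount (-0.30, edgeR adjusted p = 0.0469). It was lower in 4 of 5 Foxi2 pairs and lost that call without some pair, with an edgeR adjusted p up to 0.166. The stage comparisons and the knockdown comparisons use the same control libraries, and their values are not independent.

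Genes with large differences between replicates marked what the pairs share. *uqcrc2* (chr9:24841890-24855071), a core protein of complex III, was at 62.8 and 27.95 CPM in Sox3 morphants at early gastrula, against 98.3 and 34.1 CPM in controls, and at 49.9 and 17.7 CPM at late blastula, against 62.4 and 20.8 CPM, so that it was higher in every Sox3 library with the number 1. *ndufa3* (chr7:104839466-104842671), an accessory subunit of complex I, was lower in those libraries, at 14.3 and 31.4 CPM in Sox3 morphants at early gastrula, against 24.4 and 33.1 CPM in controls, and at 10.1 and 23.0 CPM at late blastula, against 12.3 and 22.6 CPM. In the Foxi2 series *ndufa3* was at 4.0, 25.4 and 35.0 CPM in morphants at late blastula, against 5.3, 23.9 and 34.1 CPM in controls. At early gastrula it was at 28.9 and 25.9 CPM, against 32.2 and 27.7 CPM. *uqcrc2* was at 26.6, 51.5 and 69.7 CPM in Foxi2 morphants at late blastula, against 21.2, 49.3 and 69.6 CPM in controls. At early gastrula it was at 73.5 and 44.0 CPM, against 69.3 and 43.7 CPM. The Foxi2 libraries with the number 1 were thus lowest at late blastula and higher at early gastrula for both genes. Both genes were chosen after their values were seen. What the numbers stand for, such as a clutch or a day of injection, was not tested.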

How the data were processed

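PolyA RNA libraries of whole embryos were grouped by the morpholino, stage and replicate number in their titles. Per the labels the submitters' processing notes name RSEM 1.2.12 and Bowtie2 2.2.7, and the paper's methods name RSEM with STAR and the V10.0 genome. The authors deposited expected counts per gene, estimated by RSEM, and no column was left out. The paper's methods call the values normalized, but their totals differ between libraries, so they were taken to be unscaled. Gene names carry a prefix in the Sox3 tables only, and whether the series were processed in separate runs is not given in the sources used here, so that differences between the series may include processing, which was not tested. A total of 12740571 counts or more per library limits the precision of genes with few counts, and at most 3 counts was read as the floor, which covers counting error only.

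From the deposited expected counts, rounded to whole numbers, R 4.3.3 with edgeR 4.0.16 gave the results: TMM factors over all 18 libraries, filterByExpr, glmQLFit and glmQLFTest on the libraries of each comparison, with Benjamini-Hochberg adjustment over all genes tested. A call needed an adjusted p under 0.05 at any fold. CPM values use the same factors, and log2 ratios of pairs a prior count of 2. The stage comparison over both series had series as a covariate. Differences between series or knockdowns were interaction terms. The fitting script was tested on simulated data. Morphants and controls of the same number were read as pairs from the values, since the labels do not say what a number marks. All 9 correlations were at least 0.708, but both pairs of groups of 2 libraries have the same value by construction. Stage numbers were not read as pairs in the main fits, since they did not correlate in the Foxi2 controls. In the Sox3 controls they correlated at 0.69, and the block is given there as an alternative.

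The alternatives were a replicate block, DESeq2 1.42.0, RLE factors, library size only, TMM factors of the comparison alone, genes with at least 1 count, all 18 libraries in 1 fit, a 2-fold minimum and leaving out each library. Leaving out pairs and the fits of both stages were chosen after seeing the data. Genes were named by rule: the member of each complex with the highest mean CPM over the control libraries, the sdh genes, the 5 members with the most positive and the 5 with the most negative stage difference, up to 3 called members per direction and knockdown by smallest blocked p, and genes with paralogs. *cox5b.1*, *uqcrc2*, *ndufa3*, *ndufv2* and the genes called in Sox3 controls beyond that rule were chosen after their values were seen, and *ndufs7* at late blastula and *ndufa8* at early gastrula are given beside their other stage. The members and lists were chosen with earlier results of these data known. The authors' own comparison tables were not used. Promoter sequences were not used here. Gene positions come from the RefSeq table. Figures were drawn with Python 3.11.15 and matplotlib 3.10.9.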

Additional observations from a re-analysis of the deposited data

Results flagged for a closer look

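5 results are given here because the Foxi2 and Sox3 knockdowns differed in the test of the difference itself (edgeR quasi-likelihood interaction with the replicate block, Benjamini-Hochberg adjusted). At early gastrula the log2 fold change of *atp5mc3* was higher in the Foxi2 than in the Sox3 series by 1.23 (SE 0.18, adjusted p = 0.0191), and that of *sdhd* by 1.18 (SE 0.22, adjusted p = 0.046). At late blastula the difference was 0.72 for *atp5mc3* (SE 0.13, adjusted p = 0.021), 1.08 for *atp5pd* (SE 0.15, adjusted p = 0.00577) and -0.97 for *ndufa13* (SE 0.17, adjusted p = 0.0178). *atp5pd* was lower in 4 of 4 Sox3 pairs and higher in 4 of 5 Foxi2 pairs, and *ndufa13* was lower in 5 of 5 Foxi2 pairs and 3 of 4 Sox3 pairs. The same differences were not called by edgeR without the block or by DESeq2. The knockdown series also differed in their control libraries, and the part of that in these differences was not tested.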

How the results depend on the processing

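Counts of members called were the values that moved most. For Foxi2 knockdown at late blastula edgeR called 0 members, DESeq2 1, the replicate block 6, the block 3 without pair 1 and 1 without pair 3, and the fit of both stages 16. At early gastrula the counts were 0, 4 with the block and 16 over both stages. For Sox3 knockdown at early gastrula they were 0, 3 with DESeq2, 4 with the block and 4 over both stages, and at late blastula 0, 1, 3 and 4 in the same order. The test between knockdowns gave 2 at early gastrula and 3 at late blastula with the block, against 0 without it. The stage difference in both series had 0 calls, 11 with DESeq2, 9 with the replicate block, 11 with all 18 libraries in 1 fit, and 0 to 23 when single libraries were left out. In Sox3 controls the 9 calls became 33 with DESeq2, 58 (57 higher and 1 lower) with the replicate block, 3 with library size only, 5 with RLE factors, 3 with TMM factors of the comparison, 1 with all 18 libraries in 1 fit, 3 with a 2-fold minimum and 0 to 21 without single libraries. With the block and with DESeq2 the counts of all genes rose too. They were not recorded for library size only, the other factors, all 18 libraries in 1 fit or a 2-fold minimum. The same holds for the Sox3 control fits without single libraries. Each of those fits left 1 library in a group, so their counts of calls are not read as results. In Sox3 controls the block called 3531 higher and 3176 lower of all 14067 genes tested, where the fit without it called 1199 and 1290. DESeq2 there called 32 members higher and 1 lower, beside 1649 higher and 2337 lower of all genes. In both series the block called 8 of the 74 members higher and 1 lower. That stands beside 1629 higher and 2074 lower of all 14785 genes. Deviations of libraries with the same number at the 2 stages correlated at -0.40 and 0.05 in the Foxi2 controls, and at 0.69 in the Sox3 controls, near the lowest of the morphant and control pairs. With only 2 numbers in the Sox3 controls this is a hint that they share something across stages, and the block lowered their common coefficient of variation to 0.141, where it was 0.349.

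Under the alternatives run, medians kept their sign except when single libraries were left out of the Foxi2 comparisons, which gave -0.18 to 0.35 for stage in Foxi2 controls and, for the knockdown, -0.34 to 0.30 at early gastrula and -0.11 to 0.21 at late blastula. With the block the Foxi2 median was 0.0444 at early gastrula, and in 1 fit of both stages 0.0471. The Sox3 stage median ranged from 0.55 to 0.93 without single libraries. The stage difference of *ndufs4* ranged from -0.10 to 0.10 and changed sign without replicate 1 of stage 9 (0.10) or replicate 2 of stage 10.5 (0.04) of the Foxi2 controls. Library size only moved the stage median of all genes in Sox3 controls to -0.08, where it was 0.08, and that of the members to 0.56. The cause of these shifts was not tested. Of the values under alternatives, 378 of named members kept direction and side of the threshold. Another 59 gained a call, 54 lost it and 2 changed direction. The 54 losses were all in the stage difference of Sox3 controls. Among counts and medians, 185 stayed close to the main fit and 42 moved. For a median, close meant a shift smaller than the spread between replicates, so a median near 0 could change sign and still be included. The share without mitochondrially encoded genes and the promoter motifs were not run. With 2 or 3 libraries a group, and few counts in genes such as *ndufc2*, small changes were not detectable.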
